A study of Rattus norvegicus with 48 samples.

Results

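The collagen genes measured here are 25 genes whose annotated symbol has the form of a collagen chain, each taken from a probe set that carries 1 gene symbol. They sit on 27 such probe sets, since Col6a4 has 3, and the probe set with the highest mean over all arrays stands for the gene. They were drawn from 14324 symbols and 27342 probe sets. By class they are 10 fibrillar chains, 3 basement membrane chains, 5 fibril-associated chains, 2 short-chain network chains, 3 transmembrane chains, 1 microfibrillar chain (Col6a4) and 1 anchoring fibril chain (Col7a1). The class list named 45 collagens; the others, among them Col4a2, have no probe set with 1 symbol in the annotation used. A total of 18 of the 25 had a mean signal above the 30th percentile of all probe sets, and 7 lay at or below it: Col3a1, Col4a1, Col4a4, Col8a1, Col9a1, Col12a1 and Col14a1.

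Signals were log2 values from whole-transcript arrays of adult male outbred Sprague-Dawley rats of the F3 generation, killed at 120 days of age. The vinclozolin lineage (Vin) descends from F0 females injected with 100 mg/kg/day of vinclozolin, an anti-androgenic fungicide, between embryonic days 8 and 14. The control lineage (Con) descends from females that received the DMSO vehicle alone. The F3 litters came from F2 rats that received no injection, and each Vin rat was housed with a Con rat as a dyad. Restraint stress (St) lasted 6 hours daily for 21 days, postnatal day 23 to 43, and the remaining dyads were left unstressed (NSt). Crossing stress with lineage gave 4 groups: NSt-Con and NSt-Vin without restraint, St-Con and St-Vin with it. Punches of 2 mm came from basolateral amygdala (BLA), primary and secondary motor cortex (CRTX) and the hippocampal fields CA1 and CA3. An array was made from the combined RNA of 4 rats, so the values give no view of single animals. A total of 46 of 48 arrays were used, 12 in BLA, 11 in CRTX, 11 in CA1 and 12 in CA3, because CRTX NSt-Vin 2 and CA1 St-Con 3 equal the mean of the other two arrays of their group; those groups have n = 2 and all others n = 3.

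Collagens are built from 3 chains wound into a triple helix. Fibrillar collagens, led by type I (Col1a1 and Col1a2) and type III (Col3a1), form the fibres of connective tissue, which in brain lies in the meninges and around larger vessels and is made mainly by fibroblasts. Type IV collagens (Col4a1, Col4a3, Col4a4) form the sheet-like network of basement membranes, with Col4a1 in the membrane under capillary endothelium and pericytes. Col8a1 is a short-chain network collagen of vessels and of specialised membranes. Fibril-associated collagens such as Col9a1 and Col12a1 coat fibrils, and transmembrane collagens such as Col13a1 and Col17a1 sit in cell surfaces.

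The windows before the gene starts are shown for the genes on which the results turn: Col1a2 and Col8a1, whose signals departed furthest in single arrays, and the type IV chains, which are arranged as head-to-head pairs. Sequences are from RefSeq, build GRCr8, on the plus strand, 5′ to 3′. Capitals mark matches to a CCAAT box (the letters CCAAT), to a TATA box (the letters TATAAA) or to the core of a GC box (the letters GGGCGG), each searched on both strands. No match in these windows overlaps another. The Col1a2 window is chr4:33518307-33518556, Col8a1 chr11:56246532-56246781, the stretch between the starts of Col4a2 and Col4a1 chr16:84885521-84885596, and Col4a3 chr9:91323740-91323989.
Col1a2: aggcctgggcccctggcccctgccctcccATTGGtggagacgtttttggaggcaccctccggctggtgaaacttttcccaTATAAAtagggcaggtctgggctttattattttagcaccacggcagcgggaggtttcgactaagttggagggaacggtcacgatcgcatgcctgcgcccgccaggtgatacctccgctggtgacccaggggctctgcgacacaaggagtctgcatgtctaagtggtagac
Col8a1: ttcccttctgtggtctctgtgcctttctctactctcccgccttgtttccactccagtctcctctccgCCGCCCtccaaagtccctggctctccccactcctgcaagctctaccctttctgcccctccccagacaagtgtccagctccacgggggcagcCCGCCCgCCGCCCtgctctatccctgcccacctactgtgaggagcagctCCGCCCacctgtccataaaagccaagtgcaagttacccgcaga
Col4a2-Col4a1: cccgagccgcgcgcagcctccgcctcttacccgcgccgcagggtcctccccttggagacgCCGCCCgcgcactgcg
Col4a3: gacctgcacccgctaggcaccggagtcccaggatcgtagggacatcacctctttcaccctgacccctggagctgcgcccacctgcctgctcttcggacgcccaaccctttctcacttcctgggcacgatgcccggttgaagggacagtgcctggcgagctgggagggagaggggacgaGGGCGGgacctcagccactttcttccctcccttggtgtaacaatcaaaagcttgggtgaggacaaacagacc
The starts of Col4a2 and Col4a1 are 76 bases apart, and that stretch holds 1 GGGCGG match, 16 bases before the Col4a1 start. The starts of Col4a4 and Col4a3 are 412 bases apart. The Col1a2 window holds a CCAAT match and a TATAAA match, 221 and 170 bases before the start, and the Col8a1 window holds 4 GGGCGG matches. Over the 20 collagens with a promoter entry, 250 bases before the start held CCAAT in 7, TATAAA in 4 and GGGCGG in 11. Over all 27457 entries the shares were 34.3%, 13.1% and 32.4%. No entry was matched for Col1a1, Col2a1, Col3a1, Col12a1 and Col14a1.

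Before the results, single arrays that stood apart are given. Markers of choroid plexus epithelium, 16 of 17 listed genes measured, were far above the area mean in 3 unstressed control arrays: CRTX NSt-Con 1 by a mean deviation of 2.12 on the log2 scale, CA1 NSt-Con 3 by 2.20, and CA3 NSt-Con 3 by 2.28. The list was raised less in CA1 NSt-Con 2 (0.72) and BLA St-Vin 3 (0.71), with 16 of 16 genes above in each. The area labels were checked on known subfield genes. Wfs1, a marker of CA1 pyramidal cells, had means of 9.85 in the arrays labelled CA1 and 10.3 in those labelled CA3, and Fibcd1, another CA1 marker, 7.93 and 8.40, so these markers did not set CA1 above CA3. Iyd, a CA3 marker, had means of 6.07 and 6.52. Array medians differed by area, from 6.76 to 6.805 in CRTX and from 7.34 to 7.39 in CA3, and area differences are therefore given both as deposited and after quantile normalization.

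The signals of type I and type III collagen departed from the other punches in a few single arrays. Of 1150 deviations of a collagen from its area mean, 9 exceeded 0.3 in size, and 7 of these belonged to Col1a1, Col1a2 or Col3a1 and the other two to Col8a1. The median SD over collagens was 0.073 in BLA, 0.082 in CRTX, 0.066 in CA1 and 0.062 in CA3, while that of Col1a2 was 0.384 in CRTX.

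Col1a2, which encodes the second chain of type I collagen, was highest in CRTX St-Vin 3 at 7.83. The other CRTX arrays were 6.43, 6.45 and 6.59 in NSt-Con, 6.63 and 6.73 in NSt-Vin, 6.77, 6.99 and 6.82 in St-Con, and 6.73 and 6.60 in St-Vin. In CA3 it was 7.29, 7.29 and 7.24 in NSt-Con, 7.14, 7.17 and 7.17 in NSt-Vin, 7.35, 7.28 and 7.18 in St-Con, and 7.33, 7.86 and 7.13 in St-Vin. One array thus stood above all others in each of these areas, both from St-Vin but from different dyad groups. In CA1 the values were 6.78, 6.79 and 7.20 in NSt-Con, 6.78, 6.79 and 6.94 in NSt-Vin, 6.80 and 6.85 in St-Con, and 7.21, 6.95 and 6.81 in St-Vin. In BLA all 12 arrays lay between 6.55 and 6.72, with no array apart.

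Col1a1, the first chain of type I collagen, rose to 7.74 in the same cortical array, against 7.18 to 7.33 in the other CRTX arrays. In CA3 it was 8.11 in St-Vin 2 and 7.79 to 7.93 in the others, and in CA1 and BLA it ranged from 7.42 to 7.67 and from 7.42 to 7.64. Col3a1, the single chain of type III collagen, was 6.50 in CRTX St-Vin 3 and 5.95 to 6.16 in the other CRTX arrays. In CA3 it was 6.43 in St-Vin 2 against 6.25 to 6.38 elsewhere, in CA1 its lowest, median and highest values were 6.28, 6.40 and 6.50, and in BLA 6.02, 6.15 and 6.22. All 3 genes were at their area maximum in the same cortical array and in the same CA3 array. Their mean deviation was 0.63 in CRTX St-Vin 3, 0.30 in CA3 St-Vin 2, 0.17 in CA1 NSt-Con 3 and 0.12 in CA1 St-Vin 1.

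The other fibrillar chains deviated less in those arrays. The mean deviation of Col2a1, Col5a1, Col5a2, Col5a3, Col11a1, Col11a2 and Col27a1 was 0.083 in CRTX St-Vin 3, with 7 of 7 above the area mean, and -0.076 in CA3 St-Vin 2, with 1 of 7 above. These were the highest mean of any CRTX array and the lowest of any CA3 array for this set, which ranged from -0.10 to 0.083 in CRTX and from -0.076 to 0.066 in CA3. Across 46 arrays, with each area centred on its own mean, Col1a2 correlated with Col1a1 at r = 0.852 and with Col3a1 at r = 0.814, and Col1a1 with Col3a1 at r = 0.774. Without the 2 arrays just named the values were 0.572, 0.583 and 0.488 over 44 arrays. Arrays of a pool share animals across areas, so these correlations are descriptions.

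**Figure D1:**
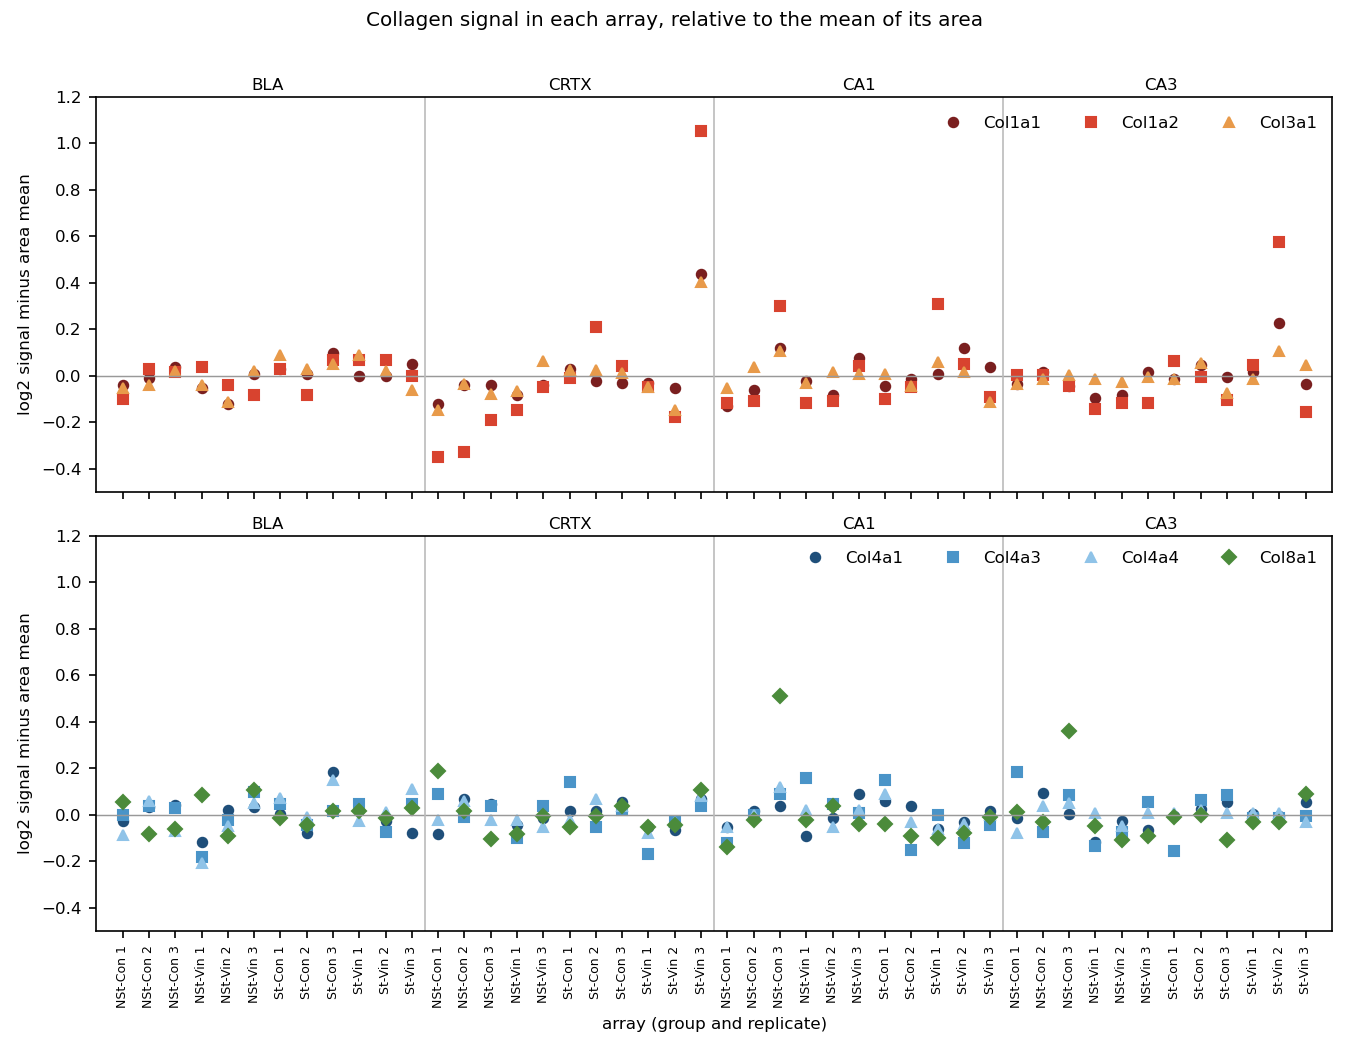
Log2 signal of each collagen minus the mean of its area, for the 46 arrays in order of area, group and replicate; the upper panel shows Col1a1, Col1a2 and Col3a1 and the lower panel Col4a1, Col4a3, Col4a4 and Col8a1. Col1a2 stands 1.05 above the area mean in CRTX St-Vin 3 and 0.57 above in CA3 St-Vin 2, and Col8a1 0.51 and 0.36 above in the third NSt-Con arrays of CA1 and CA3.

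Col8a1 had a different pattern. It was 6.23 in CA1 NSt-Con 3 and 5.58 to 5.76 in the other CA1 arrays, and 6.14 in CA3 NSt-Con 3 and 5.67 to 5.87 in the others. In CRTX the highest value was 5.61 in NSt-Con 1, with the others at 5.32 to 5.53, and in BLA it ranged from 5.59 to 5.79, with 5.71 in St-Vin 3. The highest Col8a1 arrays in CA1, CA3 and CRTX were the same arrays that had the highest choroid plexus signal in those areas. Col8a1 and Col1a2 correlated at r = 0.186 over the 46 arrays.

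The largest deviation of these type IV chains was -0.21, for Col4a4 in BLA NSt-Vin 1. Their spread was not smaller than that of types I and III in every area. In BLA the SDs of Col4a1, Col4a3 and Col4a4 were 0.077, 0.074 and 0.098, against 0.055, 0.062 and 0.062 for Col1a1, Col1a2 and Col3a1, and in CA3 Col4a3 had 0.10 against 0.082 for Col1a1. The mean deviation of Col4a1, Col4a3 and Col4a4 ranged between -0.17 and 0.12 in BLA, -0.10 and 0.061 in CRTX, -0.076 and 0.098 in CA1, and -0.081 and 0.049 in CA3. It was 0.061 in CRTX St-Vin 3 and -0.0039 in CA3 St-Vin 2. Col4a1 was 5.49, 5.64 and 5.62 in CRTX NSt-Con, 5.53 and 5.56 in NSt-Vin, 5.59, 5.59 and 5.63 in St-Con, and 5.52, 5.51 and 5.64 in St-Vin. In BLA its lowest, median and highest values were 5.64, 5.77 and 5.94, in CA1 5.66, 5.77 and 5.84, and in CA3 6.00, 6.115 and 6.21. The BLA maximum was in St-Con 3, at 5.94, with the other BLA arrays at 5.64 to 5.80, and this was the largest deviation of Col4a1, 0.18. Col4a1 correlated at r = 0.507 with Col4a4 and at r = 0.245 with Col4a3, while Col4a3 and Col4a4, the head-to-head pair, correlated at r = 0.366.

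The genes whose area-centred signal was most like that of each collagen were then listed, by Pearson's r over 46 arrays. For Col3a1 they were Slc6a13, a GABA transporter of leptomeningeal cells (r = 0.825), Myh11, a smooth muscle myosin (0.799), Nupr1 (0.762), Slc13a3 (0.755) and Slc6a20a, a proline transporter (0.746). For Col1a2, which was added after its values were seen, they were Slc6a13 (0.886), Slc6a20a (0.857), Aldh1a2, a retinoic acid synthesis enzyme (0.831), Colec12 (0.792) and Vtn (0.791). Without CRTX St-Vin 3 and CA3 St-Vin 2 the values for Col3a1 in the same order were 0.686, 0.473, 0.541, 0.460 and 0.497, and those for Col1a2 were 0.750, 0.632, 0.520, 0.567 and 0.589, all lower. For Col8a1, also added, they were Anxa2 (0.880), Slc13a4 (0.871), Igfbp2 (0.859), Abca4 (0.851) and Slc22a8 (0.850). For Col4a1 the 5 genes were Or4x5 (0.728), Or7g30 (0.709), Prss46 (0.697), Eme1 (0.686) and Slpi-ps2 (0.682), none of them on the endothelial or mural marker lists. The mean signal of Col4a1 lay low, at the 18.6th percentile of all probe sets.

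The label of the set, collagens of meninges and vessels, was checked on marker lists. In CRTX St-Vin 3 the leptomeningeal and fibroblast list (20 of 24 genes measured) had a mean deviation of 0.41 with 17 of 20 above the area mean, the endothelial list 0.23 with 11 of 11, the mural list 0.28 with 9 of 12 and the fibril-binding matrix list 0.43 with 11 of 12. In CA3 St-Vin 2 the same lists gave 0.084 with 12 of 20, 0.065 with 9 of 11, 0.14 with 11 of 12 and 0.063 with 7 of 12, while choroid plexus markers were at -1.17 with 0 of 16 above. Some leptomeningeal markers were highest in both arrays and others were not. Those highest in both included Slc6a13 at 8.28 and 8.60, and Aldh1a2 at 7.44 and 7.51, against area medians of 7.61 and 8.185 for Slc6a13 and of 6.20 and 6.89 for Aldh1a2. Both were also among the genes most like Col1a2. Igf2, Igfbp2 and Fmod were instead highest in CRTX NSt-Con 1 and in CA3 NSt-Con 3, and Dcn, Ogn and Mgp were highest in CRTX St-Vin 3 but in CA3 NSt-Con 3. The leptomeningeal list was also high where choroid plexus markers were, with means of 0.59 and 0.49 in the third NSt-Con arrays of CA1 and CA3 and of 0.29 in CRTX NSt-Con 1. It holds Igfbp2, Slc13a4 and Slc22a8, which were among the genes most like Col8a1. The part of these cells in the collagen values was not tested. In bulk punches, fewer cells of a type and less RNA per cell cannot be told apart.

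The correlation of the type I and III chains with these lists depended on which arrays were included. Col1a2 correlated with the leptomeningeal list at r = 0.467 over 46 arrays, at 0.833 over the 41 without the 5 that were high in choroid plexus markers, and at 0.277 over the 44 without CRTX St-Vin 3 and CA3 St-Vin 2. In the same order, Col1a1 gave 0.418, 0.755 and 0.187, and Col3a1 gave 0.441, 0.787 and 0.224. The 41 arrays still hold CRTX St-Vin 3 and CA3 St-Vin 2. With the mural list, Col1a2 gave 0.801 over 46 and 0.488 over 44 arrays, Col1a1 0.775 and 0.443, and Col3a1 0.771 and 0.511. With the endothelial list they gave 0.750 and 0.564, 0.621 and 0.286, and 0.703 and 0.460. For the type IV chains over 46 and 44 arrays, Col4a1 gave 0.30 and 0.264 with the endothelial list, Col4a3 0.191 and 0.199, and Col4a4 0.457 and 0.444. Their values with the mural list were 0.358 and 0.386, 0.186 and 0.229, and 0.296 and 0.251. With all 46 arrays, Col8a1 correlated at r = 0.733 with choroid plexus markers and at 0.816 with the leptomeningeal list; without those 5 arrays the values were 0.108 and 0.375.

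**Figure D2:**
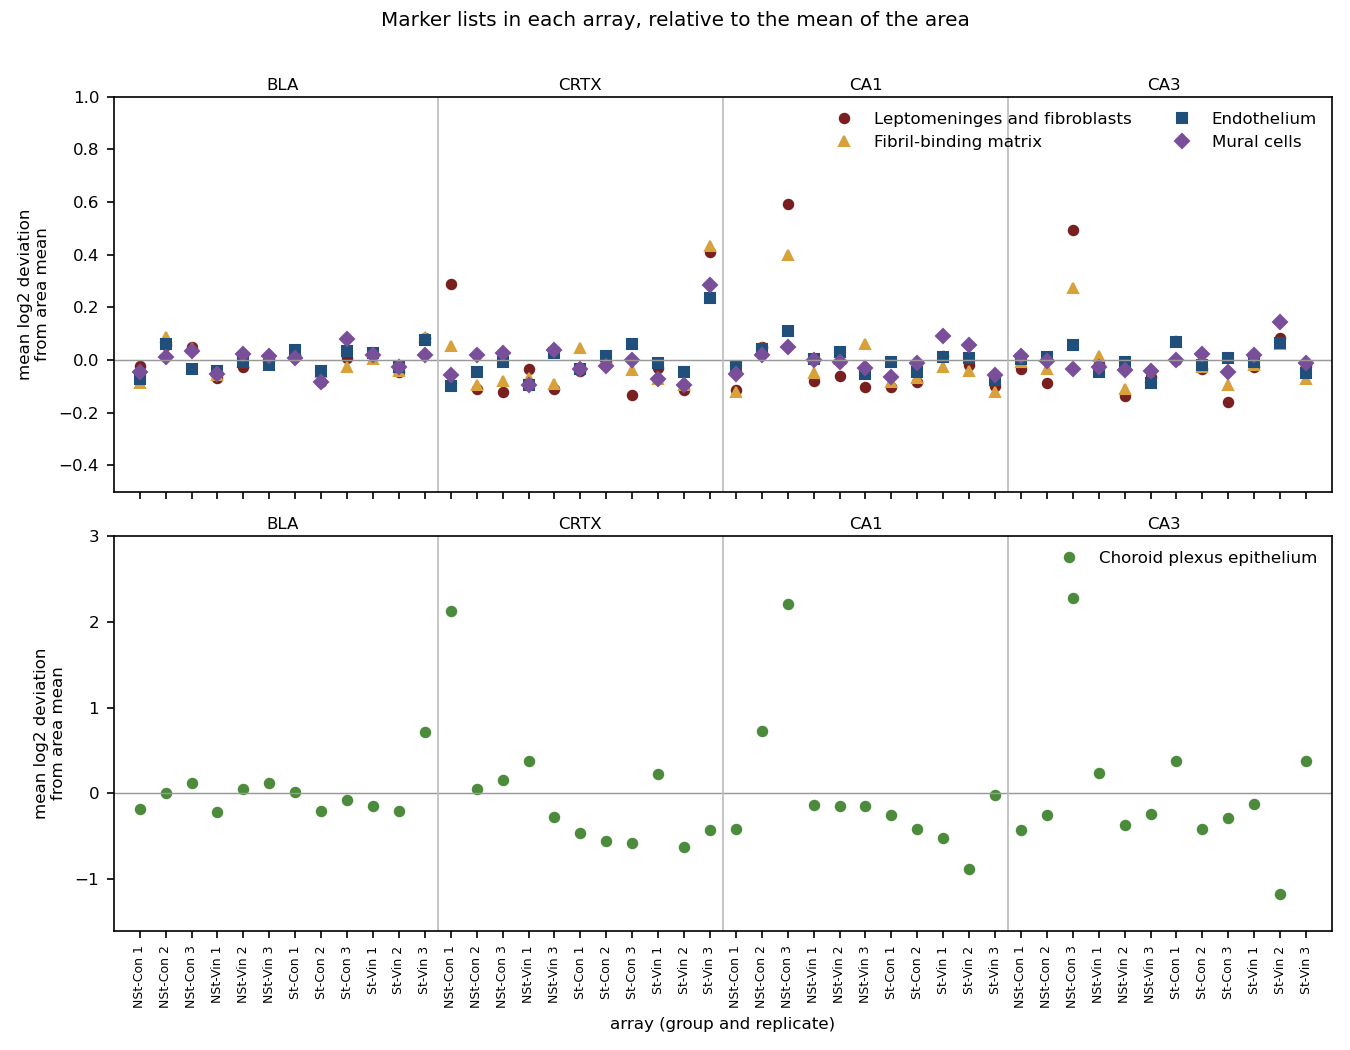
Mean log2 deviation of marker lists from the area mean, for the 46 arrays in order of area, group and replicate; the upper panel shows leptomeningeal and fibroblast, fibril-binding matrix, endothelial and mural lists, and the lower panel choroid plexus epithelium. CRTX St-Vin 3 is high for the upper lists (0.23 to 0.43) with choroid plexus at -0.43, and the arrays with choroid plexus means above 2 also have high leptomeningeal means.

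Collagens differed between areas, and the sign of 35 of the 75 differences turned with the scaling while 40 kept it. Differences between areas were tested with limma on 16 area by group means with the animal pool as a random block, and Benjamini-Hochberg adjusted p-values over all 27342 probe sets. As deposited, the median probe set shifted by -0.18 from BLA to CRTX, by 0.21 from CA1 to CA3 and by 0.31 from BLA and CRTX to the hippocampus; after quantile normalization these shifts were 0.0019, 0.00078 and -0.0075. From BLA to CRTX, 0 collagens were higher and 22 of 25 lower as deposited (background 17.2% higher and 62.4% lower over all probe sets), against 10 higher and 7 lower after quantile normalization (37.6% and 36.7%). From CA1 to CA3, 12 were higher and 5 lower as deposited (71.6% and 8.67%), and 5 higher and 12 lower after normalization (29.7% and 28.9%). In hippocampus against BLA and CRTX, 22 were higher and 1 lower as deposited (89.9% and 3.39%), and 3 higher and 9 lower after normalization (34.2% and 36.9%). BLA and CRTX RNA was prepared on the same day and CA1 and CA3 RNA on another. Hippocampus against the rest therefore cannot be told apart from the preparation day. CA1 and CA3 were scanned on different days. All BLA arrays were scanned on day 1, but NSt-Vin 3 and all stressed arrays of CRTX on day 2. Scan day thus differs in part between CRTX and BLA too.

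A direction that passed under both scalings was found for 7 of 25 collagens between CRTX and BLA, all lower in CRTX (Col4a3, Col5a2, Col6a4, Col7a1, Col9a1, Col11a2 and Col27a1). Over all probe sets 17.1% were higher and 36.6% lower under both. Between CA3 and CA1 it was found for 10: Col4a1, Col5a3, Col6a4, Col12a1 and Col16a1 were higher in CA3, and Col7a1, Col9a1, Col9a2, Col10a1 and Col13a1 lower (background 29.7% and 8.67%). For hippocampus it was found for 4: Col5a2, Col9a1 and Col11a2 were higher and Col4a3 lower (34.2% and 3.39%). This contrast averages areas, and BLA was not below CA1 or CA3 for Col5a2 and Col11a2 when measured from the array median. The mean of Col5a2 was then -0.092 in BLA, -0.425 in CRTX, -0.23 in CA1 and -0.20 in CA3. That of Col11a2 was 0.17 in BLA, -0.0086 in CRTX, 0.15 in CA1 and 0.12 in CA3.

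**Figure D3:**
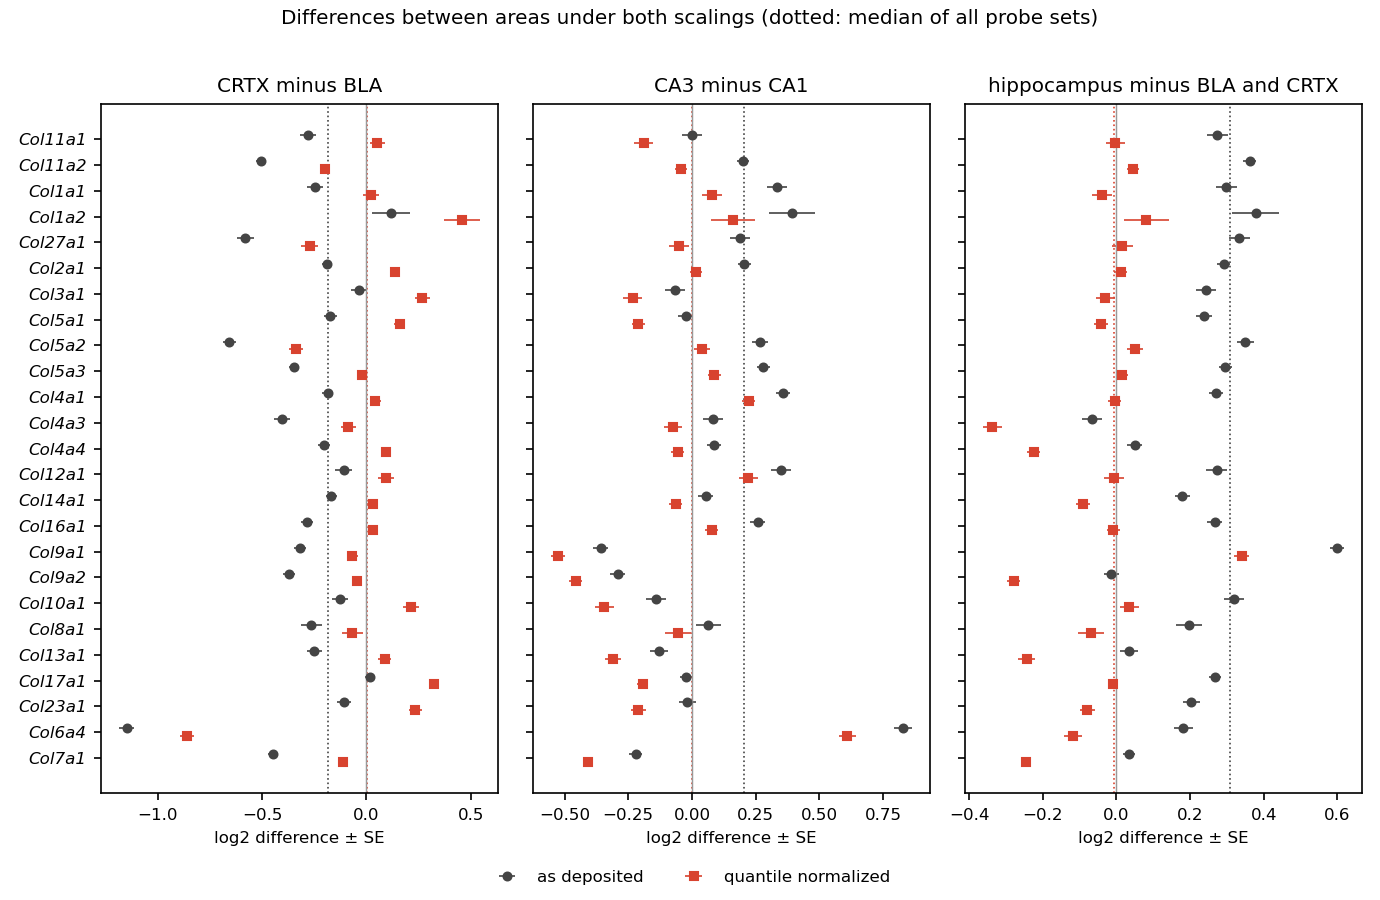
Log2 difference between areas with its SE for each of the 25 collagens, as deposited (circles) and after quantile normalization (squares); dotted lines mark the median of all probe sets. Col6a4 lies furthest out in both scalings for CRTX against BLA (-1.15 and -0.86) and for CA3 against CA1 (0.83 and 0.61).

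Among fibrillar chains, Col5a2, a chain of the type V collagen that nucleates fibrils, had a lowest, median and highest signal of 6.90, 7.02 and 7.09 in BLA, 6.25, 6.38 and 6.46 in CRTX, 6.77, 6.92 and 7.03 in CA1, and 7.04, 7.175 and 7.27 in CA3. The CRTX range lay below all the others. CRTX was lower than BLA by a log2 difference of -0.66 ± 0.031 (SE, limma, adjusted p = 7.49e-20), or -0.34 ± 0.032 after quantile normalization (1.33e-11). Col27a1 ranged from 7.12 to 7.46 in BLA and from 6.51 to 6.84 in CRTX, without overlap, with a difference of -0.58 ± 0.040 (2.59e-15) and -0.27 ± 0.041 (3.15e-07). Col11a2, a chain of type XI collagen, differed by -0.50 ± 0.025 and -0.20 ± 0.024.

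Between CRTX and BLA the signs of Col1a1 and Col3a1 turned with the scaling, and Col1a2 was higher in CRTX under both but passed only after quantile normalization. Col1a1 differed by -0.25 ± 0.040 as deposited (limma, adjusted p = 9.39e-07) and by 0.022 ± 0.039 after quantile normalization (0.621). Col1a2 differed by 0.12 ± 0.089 (0.221) and by 0.46 ± 0.087 (1.61e-05), and Col3a1 by -0.035 ± 0.039 (0.406) and by 0.27 ± 0.037 (5.45e-08). From CA1 to CA3 Col1a2 differed by 0.39 ± 0.089 (0.000161) as deposited and by 0.16 ± 0.087 (0.112) after normalization. Col3a1 differed there by -0.066 ± 0.039 (0.115) and by -0.23 ± 0.037 (1.59e-06). For hippocampus against BLA and CRTX, Col1a2 gave 0.38 ± 0.063 and 0.082 ± 0.061. Without CRTX St-Vin 3 and CA3 St-Vin 2 the Col1a2 difference between CRTX and BLA was 0.019 as deposited, and between CA3 and CA1 it was 0.34.

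Among basement membrane chains, Col4a1 was higher in CA3 than in CA1 by 0.36 ± 0.027 (limma, adjusted p = 1.00e-13), or 0.22 ± 0.025 after quantile normalization (2.72e-09), and the ranges of the areas, 6.00 to 6.21 and 5.66 to 5.84, did not overlap. Between CRTX and BLA Col4a1 gave -0.19 ± 0.027 and 0.043 ± 0.025, which flips with the scaling. Its signal was low in these arrays, at the 18.6th percentile of all probe sets by mean. Col4a3 ranged as deposited from 6.32 to 6.60 in BLA, 5.93 to 6.24 in CRTX, 6.04 to 6.35 in CA1 and 6.12 to 6.46 in CA3. BLA lay above CRTX without overlap and overlapped with CA1 and CA3. As deposited, the mean of Col4a3 was lowest in CRTX, at 6.10 against 6.19 in CA1 and 6.275 in CA3. Measured from the array median it was -0.60 in BLA, -0.68 in CRTX, -0.94 in CA1 and -1.09 in CA3. With areas averaged, Col4a3 was lower in hippocampus than in BLA and CRTX by -0.066 ± 0.028 (0.0268) and -0.34 ± 0.025 (7.65e-14). Col4a4 gave 0.049 ± 0.020 and -0.23 ± 0.017 in that comparison, which flips.

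Col6a4, a chain of the beaded microfilament collagen type VI, had the widest spread between areas. Its lowest, median and highest values were 7.09, 7.16 and 7.36 in BLA, 5.92, 6.04 and 6.16 in CRTX, 6.29, 6.36 and 6.50 in CA1, and 7.08, 7.205 and 7.30 in CA3. As deposited, BLA and CA3 overlapped, and CRTX and CA1 lay apart from both and from each other. Measured from the array median, the mean signal was 0.076 in BLA, -0.75 in CRTX, -0.76 in CA1 and -0.17 in CA3. On that measure CRTX and CA1 lay close together, below BLA and CA3. The difference of CRTX from BLA was -1.15 ± 0.035 (limma, adjusted p = 3.14e-25) and -0.86 ± 0.034 after quantile normalization (1.54e-21). That of CA3 from CA1 was 0.83 ± 0.035 (2.08e-20) and 0.61 ± 0.034 (8.41e-17). The other two Col6a4 probe sets had lower means over the arrays, 5.78 and 5.37 against 6.72. Their values by area are not given here, so the area pattern rests on the probe set with the highest mean.

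Col9a1, which covers cartilage-type fibrils and is also known from neural tissue, was highest in CA1. Its lowest, median and highest values were 5.84, 5.92 and 6.08 in BLA, 5.51, 5.60 and 5.75 in CRTX, 6.50, 6.56 and 6.72 in CA1, and 6.11, 6.20 and 6.26 in CA3. As deposited, no area overlapped with another. Measured from the array median, the mean signal was -1.16 in BLA, -1.16 in CRTX, -0.57 in CA1 and -1.17 in CA3, so only CA1 stood apart. CRTX differed from BLA by -0.32 ± 0.028 as deposited and by -0.067 ± 0.028 after quantile normalization. CA3 was lower than CA1 by -0.36 ± 0.028 (limma, adjusted p = 1.19e-13) and -0.52 ± 0.028 after quantile normalization (1.81e-17), and hippocampus was higher than BLA and CRTX by 0.60 ± 0.020 (1.47e-24) and 0.34 ± 0.020 (7.26e-17). Its partner chain Col9a2 was lower in CA3 than in CA1 by -0.29 ± 0.029 (4.27e-11) and -0.46 ± 0.025 (4.39e-17). Col7a1, the anchoring fibril chain, was lower there by -0.22 ± 0.024 and -0.41 ± 0.020.

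**Figure D4:**
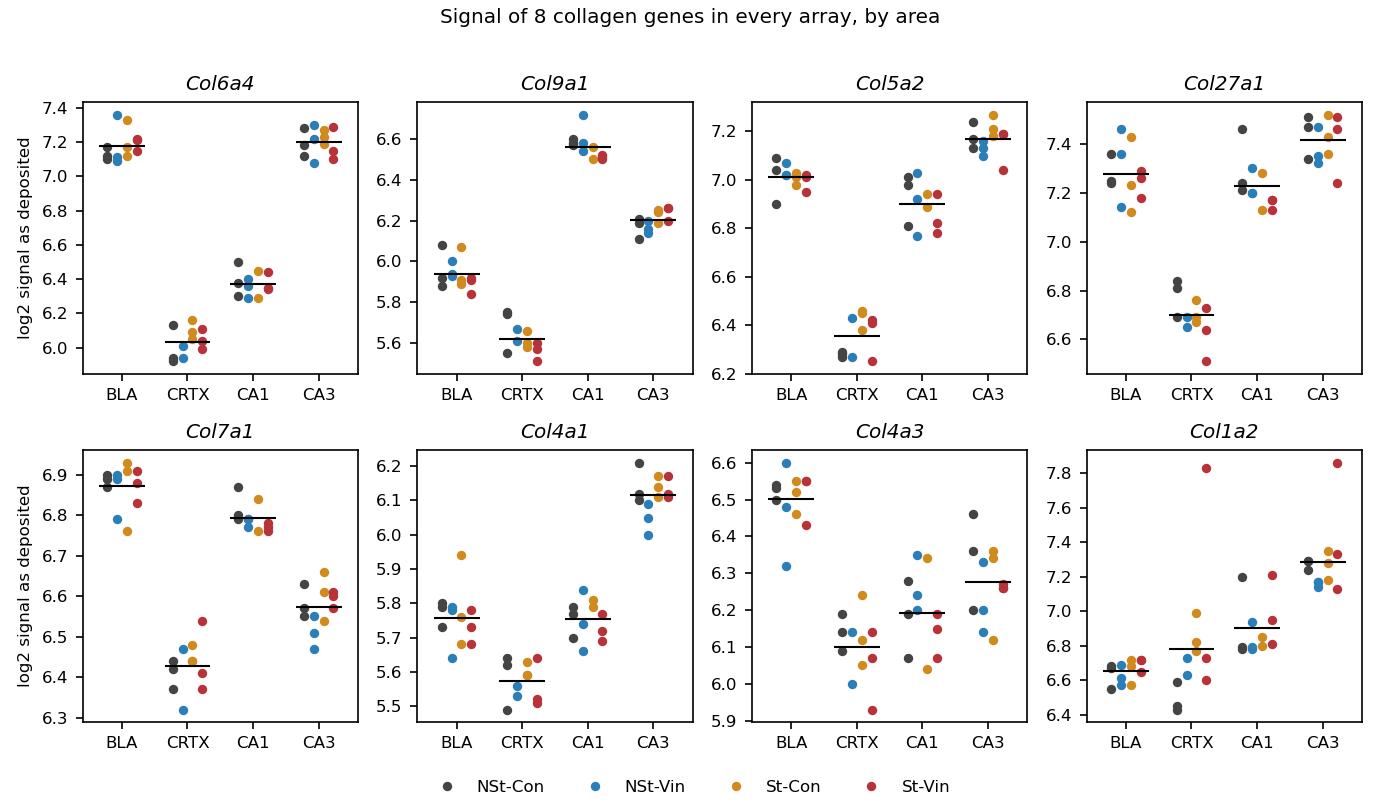
Log2 signal as deposited of Col6a4, Col9a1, Col5a2, Col27a1, Col7a1, Col4a1, Col4a3 and Col1a2 in every array, by area, coloured by group; black lines are area means. Col6a4 in CRTX (5.92 to 6.16) and CA1 (6.29 to 6.50) lies below BLA and CA3. The as-deposited ranges of Col9a1 do not overlap between the 4 areas, whose array medians also differ.

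The other fibrillar chains were Col2a1, Col5a1, Col5a3 and Col11a1. From BLA to CRTX they were lower as deposited, with differences of -0.19 ± 0.025, -0.17 ± 0.031, -0.35 ± 0.025 and -0.28 ± 0.039, and after quantile normalization the first pair was higher, at 0.14 ± 0.023 and 0.16 ± 0.026, while the others did not pass, at -0.022 ± 0.024 and 0.053 ± 0.036. Col5a3, a type V chain, was higher in CA3 than in CA1 under both scalings, by 0.28 ± 0.025 and 0.088 ± 0.024. Of the fibril-associated chains, Col12a1 and Col16a1 were higher in CA3 than in CA1 under both, by 0.35 ± 0.040 and 0.22 ± 0.038 for Col12a1 and by 0.26 ± 0.029 and 0.077 ± 0.024 for Col16a1, and Col14a1 gave 0.053 ± 0.028 and -0.064 ± 0.026. The transmembrane chains Col13a1, Col17a1 and Col23a1 differed there by -0.13 ± 0.036, -0.023 ± 0.024 and -0.018 ± 0.034 as deposited, and all 3 were lower after normalization, by -0.31 ± 0.032, -0.19 ± 0.021 and -0.21 ± 0.031. Col8a1 and Col10a1, the short-chain collagens, gave 0.065 ± 0.050 and -0.14 ± 0.039 as deposited, then -0.055 ± 0.051 and -0.34 ± 0.037.

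Genes that make, bind and degrade collagen were counted in the same contrasts from fixed lists. For hippocampus against BLA and CRTX, the shares of all probe sets beside which these counts stand are 89.9% higher and 3.39% lower as deposited, and 34.2% and 36.9% after quantile normalization. Of 27 biosynthesis and crosslinking genes, 27 were higher and 0 lower in hippocampus than in BLA and CRTX as deposited, and 18 were higher and 2 lower after quantile normalization, with medians of 0.51 and 0.21 against 0.31 and -0.0075 for all probe sets. Of 12 fibril-binding matrix genes such as Dcn and Fbn1, 11 were higher and 1 lower, and 8 and 1 after normalization. Of 9 receptors, 9 were higher and 0 lower, then 6 and 2, and of 12 degradation genes 10 and 0, then 6 and 4. Of 9 basement membrane partners such as Lama5 and Agrn, 8 were higher and 0 lower, then 3 and 3. Between CA1 and CA3 the normalized counts were 10 higher and 7 lower of 27 for biosynthesis and 5 and 3 of 12 for fibril-binding genes. The shares of all probe sets there were 29.7% higher and 28.9% lower. The biosynthesis genes Loxl3, a lysyl oxidase, and Crtap, a helix hydroxylation partner, led in CA3. Their as-deposited differences were 0.74 ± 0.031 and 0.64 ± 0.038. These values were not corrected for the shift of the median probe set, which was 0.21.

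The lineage and stress comparisons called no collagen. In each area 7 comparisons were fitted with limma: Vin against Con in NSt and in St, St against NSt in Con and in Vin, the interaction and both averages. Over the 700 tests of a collagen in an area, 0 passed an adjusted p of 0.05 and 5 had an unadjusted p below 0.05, which is 0.714% against a mean of 6.47% over all probe sets. Over all probe sets the share called was 0% in every comparison except St against NSt in Con in CRTX (0.636%), the CRTX stress average (0.00731%) and St against NSt in Vin in CA1 (0.505%). In the CRTX controls and in the CA1 Vin arrays, all unstressed arrays were scanned on one day and all stressed arrays on another. Stress and scan day cannot be told apart in these comparisons, and in part also not in the CRTX stress average. With the mean of the 4 areas per pool, 0 collagens passed and 3 of the tests had an unadjusted p below 0.05.

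**Figure D5:**
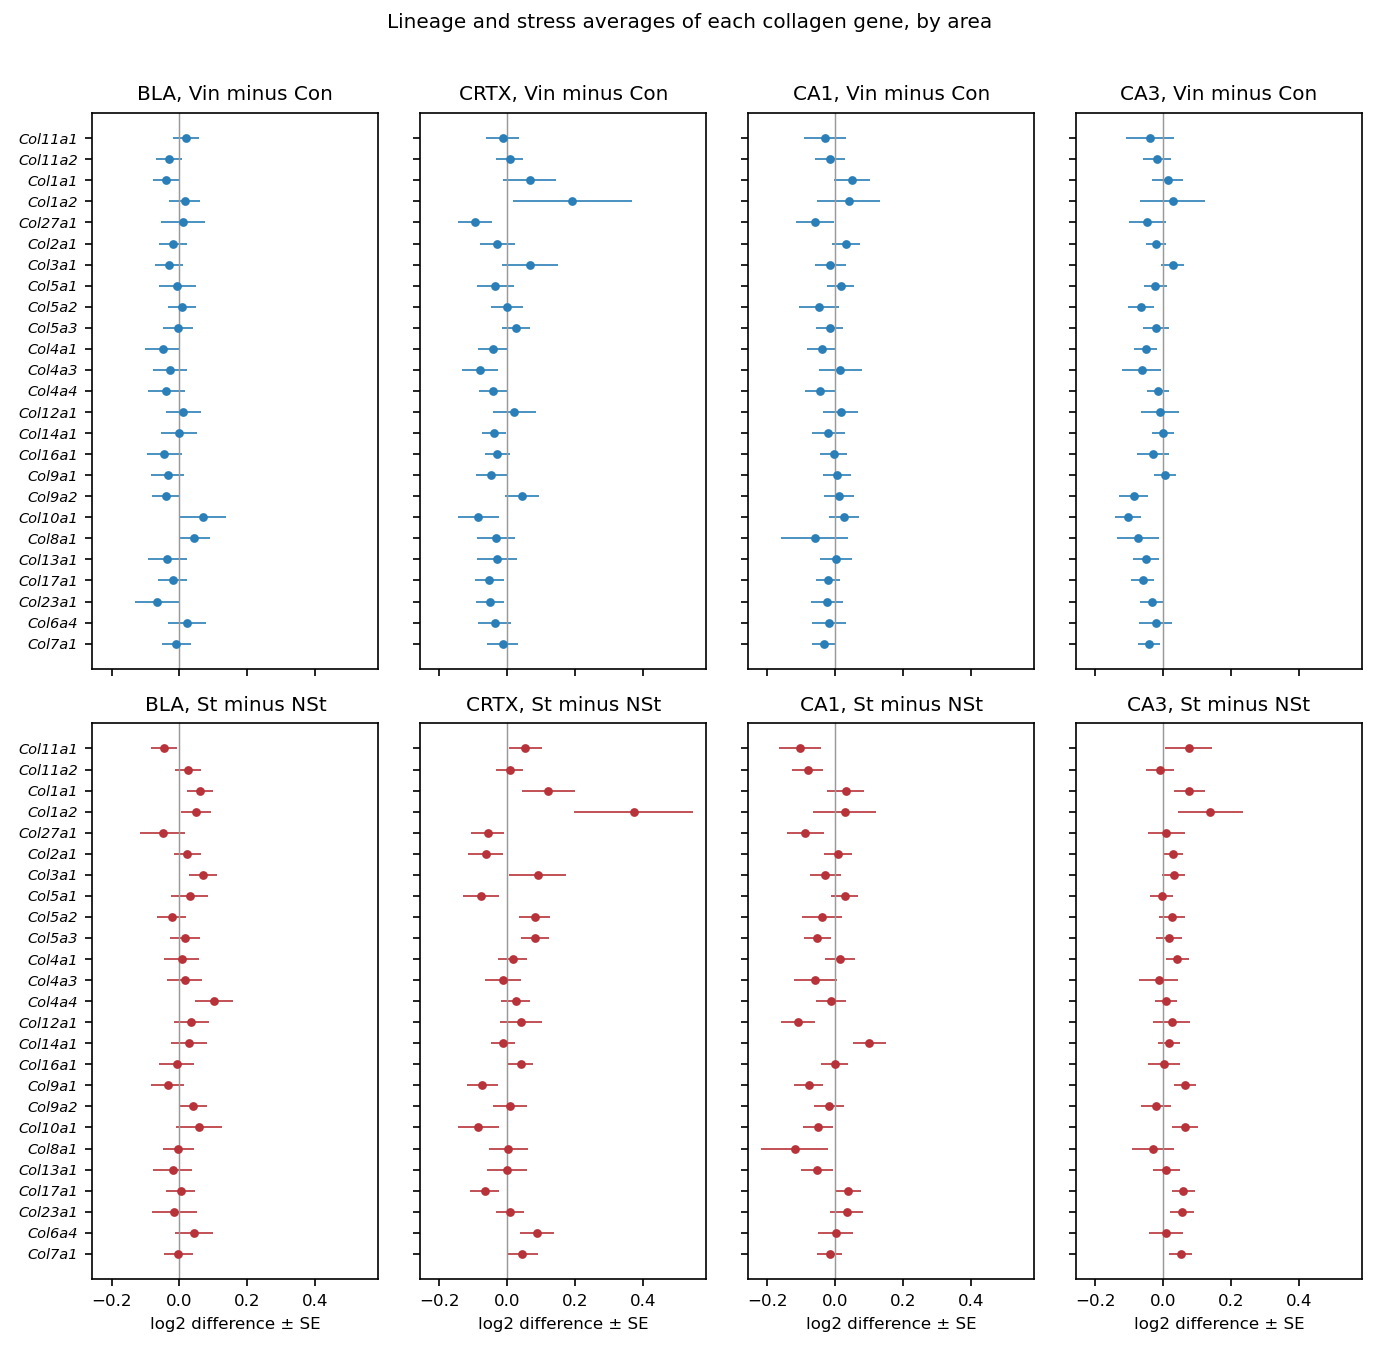
Lineage average (Vin minus Con, upper row) and stress average (St minus NSt, lower row) of each of the 25 collagens with its SE, by area, as log2 differences. None passed the test; the widest interval is that of Col1a2 in CRTX, at 0.37 ± 0.18 for stress.

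For lineage, the collagens with the smallest p in each area were Col1a1 in BLA, Col27a1 in CRTX and CA1, and Col10a1 in CA3. In BLA Col1a1 was 7.50, 7.53 and 7.58 in NSt-Con, 7.49, 7.42 and 7.55 in NSt-Vin, 7.57, 7.55 and 7.64 in St-Con, and 7.54, 7.54 and 7.59 in St-Vin, so the lineages overlapped; the average was -0.040 ± 0.039 (limma, adjusted p = 0.997). With pools paired by replicate number, Col1a1 in BLA was higher in Vin in 0 of 6 pairs, with differences from -0.11 to -0.01. No collagen passed in BLA with these pairs as a block. In CRTX Col27a1 was 6.84, 6.69 and 6.81 in NSt-Con, 6.65 and 6.69 in NSt-Vin, 6.76, 6.67 and 6.69 in St-Con, and 6.51, 6.64 and 6.73 in St-Vin, with an average of -0.095 ± 0.049 (0.874). The groups overlapped there too. In CA1 Col27a1 averaged -0.059 ± 0.055 (0.994), and in CA3 Col10a1, a short-chain collagen best known from cartilage, averaged -0.10 ± 0.038 (0.997). Its CA3 values were 6.81, 6.82 and 6.83 in NSt-Con, 6.73, 6.80 and 6.76 in NSt-Vin, 6.88, 6.98 and 6.93 in St-Con, and 6.75, 6.70 and 6.89 in St-Vin. Every NSt-Vin value lay below every NSt-Con value, and the St ranges overlapped. The number of collagens lower in Vin on the lineage average was 17 of 25 in BLA, 18 in CRTX, 15 in CA1 and 20 in CA3, with medians of -0.020, -0.030, -0.016 and -0.028 against 0.0033, 0, 0.0067 and -0.0033 for all probe sets.

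By class, the lineage median of fibrillar chains was -0.0050 in BLA, 0.0033 in CRTX, -0.015 in CA1 and -0.021 in CA3, and that of basement membrane chains -0.038, -0.043, -0.040 and -0.052. Col4a1 averaged -0.050 ± 0.051 in BLA, -0.043 ± 0.043 in CRTX, -0.040 ± 0.043 in CA1 and -0.052 ± 0.033 in CA3, and none of these passed (limma, adjusted p = 0.997, 0.923, 0.994 and 0.997). The differences of Col1a2 were 0.015 ± 0.044, 0.19 ± 0.18, 0.039 ± 0.093 and 0.028 ± 0.096 in the same order.

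For stress, the collagens with the smallest p were Col4a4 in BLA, Col1a2 in CRTX, Col12a1 in CA1 and Col9a1 in CA3. In CRTX the Col1a2 average was 0.37 ± 0.18 (limma, adjusted p = 0.366). In controls of that area, Col1a2 was 6.43, 6.45 and 6.59 without and 6.77, 6.99 and 6.82 with restraint, without overlap, and the difference was 0.37 ± 0.23 (0.428). When CRTX St-Vin 3, the array with the outlying Col1a2 signal, was left out, the difference in controls stayed at 0.37 and passed (adjusted p = 0.0439, with a range of 0.0439 to 0.914 over 18 alternatives), and the stress average was 0.18 (0.196). All NSt-Con arrays of CRTX were scanned on day 1 and all St-Con arrays on day 2. Stress and scan day therefore cannot be told apart in those controls. With scan day as a block the difference was 0.27 (0.914). Only NSt-Vin spanned both days, with 1 array on each (6.63 and 6.73), so the block rests on that pair. In NSt-Con and St-Con of CRTX the leptomeningeal list ranged from 6.30 to 6.72 and from 6.29 to 6.42. The endothelial list ranged from 7.13 to 7.22 and from 7.19 to 7.29, and the mural list from 6.62 to 6.71 and from 6.64 to 6.68. The choroid plexus list ranged from 6.51 to 8.58 and from 5.88 to 6.00, without overlap. Over all probe sets, 0.636% were called for St against NSt in these controls. Of the 12 mural genes 1 passed in this comparison, Cspg4, a pericyte proteoglycan shared with oligodendrocyte precursors, at -0.38 ± 0.057 (limma, adjusted p = 0.0237). The part of these cells in the Col1a2 values was not tested.

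In BLA, Col4a4 was 6.06, 6.21 and 6.08 in NSt-Con, 5.94, 6.10 and 6.20 in NSt-Vin, 6.22, 6.14 and 6.30 in St-Con, and 6.12, 6.16 and 6.26 in St-Vin, with overlap and a stress average of 0.10 ± 0.055 (limma, adjusted p = 0.996). In CA1, Col12a1, a chain that bridges fibrils, was 5.66, 5.71 and 5.79 in NSt-Con, 5.84, 5.66 and 5.63 in NSt-Vin, 5.60 and 5.57 in St-Con, and 5.65, 5.55 and 5.68 in St-Vin, with an average of -0.11 ± 0.051 (0.307). In CA3, Col9a1 averaged 0.065 ± 0.032 (0.498), with values of 6.11 to 6.21 in NSt and 6.19 to 6.26 in St. The stressed and unstressed ranges overlapped for each of these genes.

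The remaining collagens with an unadjusted p below 0.05 within an area were Col5a2 for St against NSt in Con in CRTX (0.15 ± 0.062, limma, adjusted p = 0.225), Col13a1, a transmembrane collagen of cell junctions, for St against NSt in Vin in CA1 (-0.16 ± 0.063, 0.216), Col10a1 for Vin against Con in St in CA3 (-0.15 ± 0.054, 0.996) and Col8a1 for Vin against Con in NSt in CA3 (-0.20 ± 0.087, 0.845). Stress and scan day cannot be told apart in the Col5a2 and Col13a1 comparisons. Col8a1 in CA3 was 5.79, 5.75 and 6.14 in NSt-Con and 5.73, 5.67 and 5.69 in NSt-Vin, and the value of 6.14 is from the array with the highest choroid plexus signal of that area. On the mean of the areas Col1a2 had the smallest p for the stress average, 0.15 ± 0.036 (0.456).

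None of the genes in the biosynthesis, fibril-binding, basement membrane partner, receptor and degradation lists passed in a lineage or stress comparison of any area.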

How the data were processed

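Per the labels' protocols, biotin-labelled DNA made from pooled RNA was hybridised to 1-colour Affymetrix whole-transcript arrays; RMA and Partek are the tools listed in the submitters' processing notes, and no source used here gives a version. The deposited unit is log2 signal per probe set, with array medians that differ between areas. The platform annotation gave 15097 of 27342 probe sets 1 symbol, 323 several and 11922 none, and 15067 were matched by gene number to RefSeq, assembly GRCr8. No source used here states the genome build of the probe sets. Precision is set by the number of arrays, which have no sequencing depth.

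The members and lists were chosen with earlier results of these data known. limma 3.58.1 (R 4.3.3, statmod 1.5.0) was fitted to the log2 values as deposited: 16 area by group means with the animal pool as a random block (estimated correlation 0.0487), and 4 group means per area; Benjamini-Hochberg adjustment covered all probe sets at a threshold of 0.05. The lineage average within each area and the contrast of CRTX against BLA were tested on simulated data. Each SE comes from limma, and each SD from the arrays of an area. The replicates are separate pools of 4 rats, and p-values refer to variation among pools. CRTX NSt-Vin 2 and CA1 St-Con 3 equal the mean of the other arrays of their group (largest deviation 0.005, tolerance 0.0051) and were left out.

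Dyads were cage mates, and Vin and Con pools of a stress condition were paired by replicate number as dyad groups. The sample titles give that number but do not state which pools held cage mates, so the pairing is inferred. Deviations from the group means of the paired pools had r above 0.1 for 6 of 6 BLA pairs, 3 of 5 CRTX pairs, 5 of 5 CA1 pairs and 5 of 6 CA3 pairs. Genes were named by rule: every array's value for Col1a1, Col1a2, Col3a1 and Col4a1, any collagen called in a lineage or stress comparison, otherwise the one with the smallest p of each area's lineage and stress average; the 3 highest and 3 lowest called collagens of each area contrast; the 5 genes most like Col3a1 and Col4a1; and up to 3 genes with the smallest p per list. Other collagens and the likeness lists of Col1a2 and Col8a1 were added after their values were seen. Alternatives were quantile normalization, a filter at the 30th percentile, all 48 arrays, eBayes with trend and robust settings, no arrays high in choroid plexus, probe set means, the blocks, scan days and leaving out arrays.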

Additional observations from a re-analysis of the deposited data

Results flagged for a closer look

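The difference between the pools paired by replicate number (Vin minus Con of a dyad group) was examined in 20 sets, Col1a1, Col1a2, Col3a1, Col4a1 and Col8a1 in each area. In 4 sets 1 dyad group lay far from the others by Dixon's gap criterion. Chance passes it in about 1 of 20 groups, but that rate does not apply to genes taken up with their outlying arrays known, and 3 of the 4 sets restate arrays already described. Col1a1 in CRTX was 0.47 higher in Vin in dyad group 6, and the other 4 dyad groups lay between -0.06 and 0.04. Col1a2 in CA3 was 0.58 higher in Vin in dyad group 5, and the other 5 lay between -0.15 and -0.02. These values come from CRTX St-Vin 3 and CA3 St-Vin 2, the arrays with the highest type I and III signal of their area. Col8a1 in CA1 had a difference of -0.55 in dyad group 3, from the array with the highest choroid plexus signal of that area, and the other 4 lay between -0.06 and 0.12. Col8a1 in BLA had a difference of 0.17 in dyad group 3, with the other 5 between -0.01 and 0.03.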

How the results depend on the processing

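The number of arrays and the scaling between areas limit the area results, and pooled RNA limits what single punches can show. Quantile normalization removes the shift of the median probe set between areas, and it left 12 collagens called in hippocampus against BLA and CRTX. It turned the sign of 35 of 75 differences. The 33 that passed under at least one scaling are given here; Col4a3 and Col8a1 between CA1 and CA3 passed under neither. From BLA to CRTX these became Col10a1 0.21, Col11a1 0.053, Col12a1 0.092, Col13a1 0.088, Col14a1 0.030, Col16a1 0.032, Col1a1 0.022, Col23a1 0.23, Col2a1 0.14, Col3a1 0.27, Col4a1 0.043, Col4a4 0.094 and Col5a1 0.16. From CA1 to CA3 they became Col11a1 -0.19, Col11a2 -0.044, Col14a1 -0.064, Col27a1 -0.051 and Col4a4 -0.057. In hippocampus they became Col11a1 -0.0026, Col12a1 -0.0070, Col13a1 -0.24, Col14a1 -0.091, Col16a1 -0.0081, Col17a1 -0.0090, Col1a1 -0.038, Col23a1 -0.079, Col3a1 -0.030, Col4a1 -0.0047, Col4a4 -0.23, Col5a1 -0.042, Col6a4 -0.12, Col7a1 -0.25 and Col8a1 -0.068. Within scan day 1, chosen after seeing the data, 19 collagens were called between CRTX and BLA and Col10a1 turned to 0.018; with quantile normalization there 13 were called, and the turned values were Col10a1 0.35, Col12a1 0.092, Col13a1 0.076, Col14a1 0.071, Col16a1 0.0017, Col23a1 0.23, Col2a1 0.19, Col3a1 0.23, Col4a1 0.041, Col4a4 0.15 and Col5a1 0.17. The CRTX arrays of scan day 1 were NSt-Con 1 to 3 and NSt-Vin 1, so only unstressed groups were compared there. Leaving out a dyad group gave 19 to 23 calls for CRTX against BLA, 17 to 18 for CA3 against CA1 and 20 to 22 for hippocampus. Shares over all probe sets are not given for these settings. In the main fit as deposited they were 17.2% higher and 62.4% lower for CRTX against BLA (37.6% and 36.7% after quantile normalization). They were 71.6% and 8.67% for CA3 against CA1, and 89.9% and 3.39% for hippocampus. In the lineage and stress comparisons, leaving out an array gave 0 to 0 calls in BLA, CA1 and CA3 and for the mean of areas, and 0 to 1 in CRTX. Leaving out St-Vin replicate 3 there called 1, Col1a2, for St against NSt in Con. That difference uses no St-Vin array and stayed at 0.37, while all 4 groups share 1 estimate of the spread. The share of all probe sets called in that setting is not given, and the cause of the Col1a2 difference was not tested. With the replicate block, the number of collagens called was 0 in each area and for the mean of areas, and the block changed no other call. Scan day as a block in CA1 could not be fitted for St-Vin, which lies alone on its day. No collagen was called in the lineage and stress comparisons, so their planned values for called members were not run.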
